A study of Mus musculus with 2 samples.

Results

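The 45 genes described here encode the actin cytoskeleton and its motility machinery: actins, monomer-binding proteins, the Arp2/3 complex, crosslinkers, adhesion proteins, nonmuscle myosin II and Cdc42. They were chosen as a named list of symbols, without a rule on their measured values but with earlier results of these data known. They are 45 of 55536 annotated genes. All 45 symbols were found, under 46 gene identifiers, because Myl12b has 2. PolyA plus RNA-seq was made from macrophages grown from bone marrow of C57BL/6J mice, in 2 libraries that form 1 group. The cells had lipid A, the membrane anchor of bacterial lipopolysaccharide, at 100 ng/ml for 12 h, a washout of 12 h, and lipid A at 100 ng/ml again for 120 min. The labels are not uniform on the agent, naming lipid A in the description and lipoprotein A elsewhere. The libraries are labelled biological replicates 1 and 2 but carry the same donor identifier, so part of their spread may be technical. Age and sex were not recorded in the labels. No unstimulated sample was analysed here, so no change with lipid A can be read from these data.

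Actin filaments grow from monomers that profilin delivers and thymosin β4 holds in reserve, and cofilin takes old filaments apart. The Arp2/3 complex, switched on by WASP and WAVE proteins under Cdc42 and Rac, starts branches on existing filaments. Crosslinkers, myosin II and adhesion proteins turn the network into the ruffles, podosomes and phagocytic cups by which macrophages crawl and engulf particles.

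Total expected counts, the estimated reads over all rows of the gene table, were 45377715 in replicate 1 and 32112416 in replicate 2. Levels are in TPM, transcript abundance per length, set to the same total in each table. The members had from 519 reads to 330118 in replicate 1 and from 834 to 231832 in replicate 2. Of 10 macrophage markers all 10 were at 10 TPM or more in both libraries, with a summed level of 16802 and 18631 TPM. The largest part of that sum was Lyz2, at 8979 and 9815 TPM. Single macrophage markers differed in both directions, with Fcgr1 at 726 and 380 TPM and Cd14 at 476 and 903 TPM. All 10 smooth muscle and fibroblast markers were under 1 TPM in both, with Cnn1 and Des at 0. All 3 erythroid markers were at 0, and all 6 markers of T, B and NK cells were under 1 TPM. Sums over 8 neutrophil markers (63.5 and 6.58 TPM), 7 megakaryocyte and platelet markers (275 and 96.7 TPM) and 6 markers of mature dendritic cells (28.0 and 68.8 TPM) differed between the libraries. The granulocyte surface marker Ly6g was at 0 in both. Most of the platelet sum was Pf4, at 271 and 95.2 TPM, and the other 6 markers of that list were under 3 TPM. Most of the dendritic cell sum was Ccl22 and Fscn1, which is itself a member. In bulk RNA, fewer cells of a type and less RNA per cell cannot be told apart.

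Nearly every member was expressed at a high level. All 45 were at 1 TPM or more in both libraries, and 44 were at 10 TPM or more, against 27.2% of the 22028 protein-coding genes. The exception was Vcl. At 100 TPM there were 35 members, against 5.20% of protein-coding genes, and at 1000 TPM there were 6, against 0.350%. Together the members held 4.20% of the TPM of annotated genes in replicate 1 and 3.96% in replicate 2 (4.08% ± 0.169, SD, n = 2). Actb and Tmsb4x alone made up 48.1% and 37.4% of the members' sum. The members' median level was 373 TPM in replicate 1 and 285 TPM in replicate 2, where protein-coding genes at 1 TPM or more had medians of 17.1 and 17.3 TPM.

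**Figure D1:**
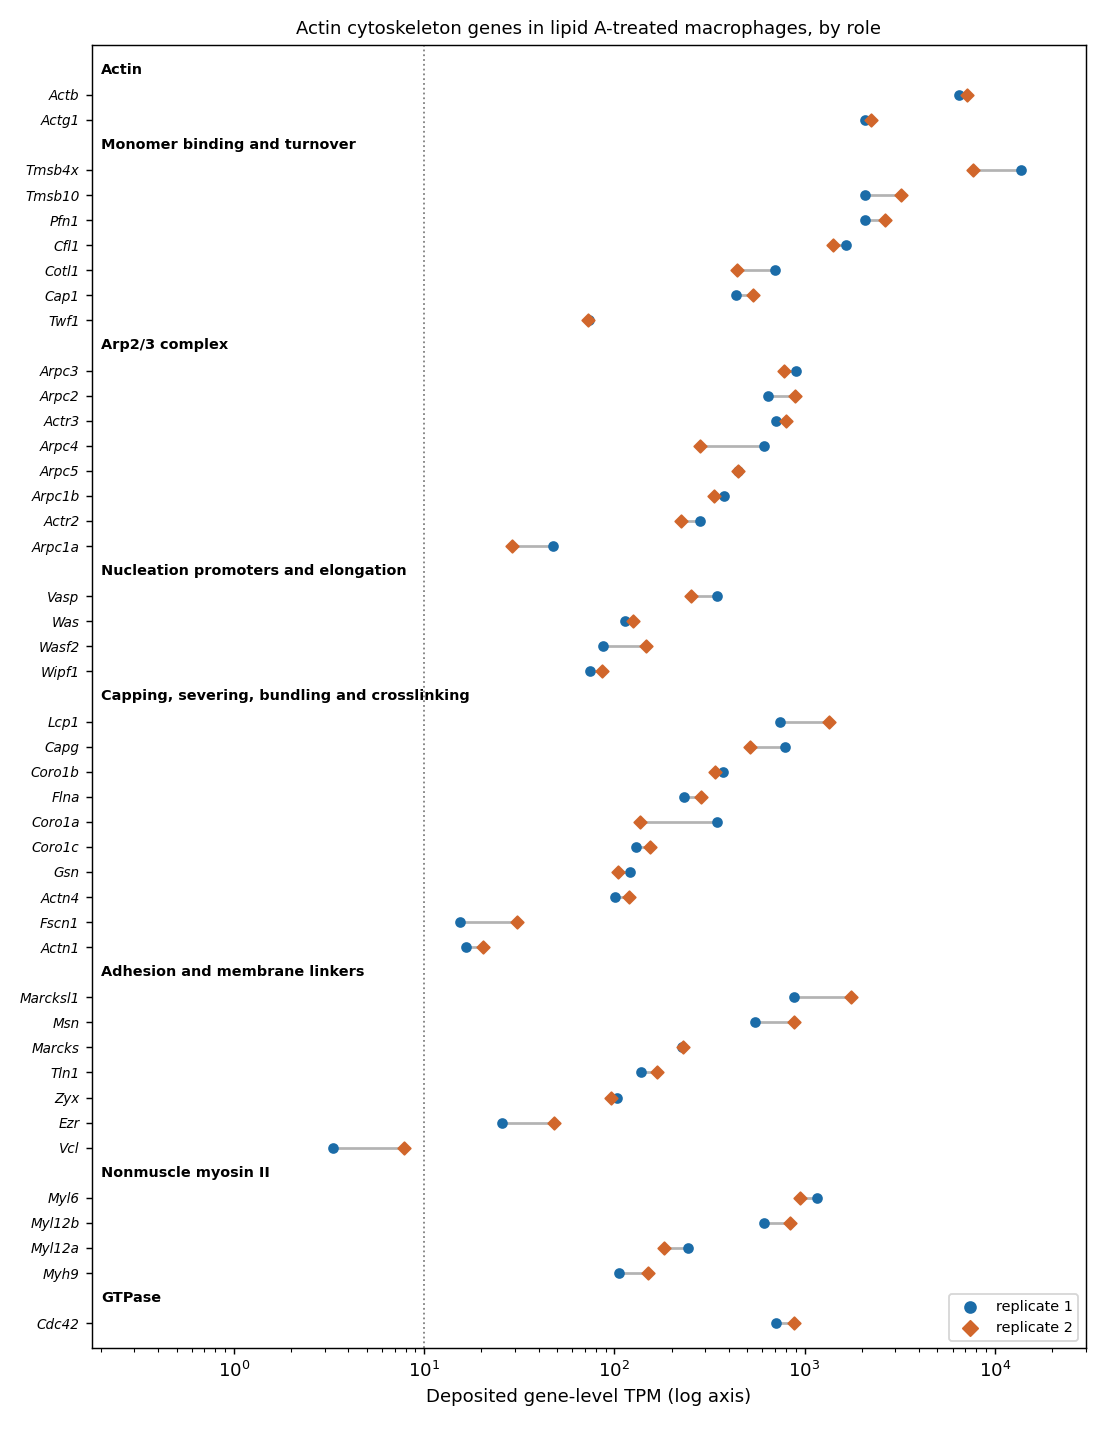
Gene-level TPM (log axis) of 43 of the 45 genes in replicate 1 (circles) and replicate 2 (diamonds), grouped by role and sorted by mean; the dotted line is 10 TPM. Vcl is the only gene left of the line, and Tmsb4x and Actb lie farthest right.

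Both cytoplasmic actins were expressed. Actb, β-actin (mm10 chromosome 5, 142903115 to 142906754), was at 6479 TPM in replicate 1 and 7165 TPM in replicate 2, rank 15 and 17 among annotated genes. Actg1, γ-actin (chromosome 11, 120345690 to 120348542), was at 2076 and 2227 TPM. Actb was therefore 3.12 times Actg1 in replicate 1 and 3.22 times in replicate 2. The muscle actins Acta1, Actc1 and Actg2 were at 0 TPM in both libraries, and Acta2, smooth muscle actin, was at 0.49 and 0.67 TPM. The coding sequences of Actb and Actg1 have 1125 bases each and share 997 of them (88.6%), with a longest identical run of 62 bases. Of the 31-base words of the leading Actg1 transcript, 57.1% occur in transcripts of other genes, and of those of Actb 35.3%.

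Other annotated genes share actin sequence. The processed pseudogene Gm12715, chosen after its values were seen, contains 53.6% of the 31-base words of Actg1. It was given 55.2 TPM in replicate 1 and 409.5 TPM in replicate 2 by the main quantification. A second quantification, made by the authors from the reads and a transcript index without an alignment file, gave it 1.06 and 569.8 TPM. In the same table Actg1 was at 1665 and 1873 TPM and Actb at 5482 and 7249 TPM, so Actb over Actg1 was 3.29 and 3.87 there. Whether reads of Actg1 were given to Gm12715 was not tested.

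The monomer-binding genes ran from the highest level of the 45, Tmsb4x, down to Twf1 at a mean of 73.0 TPM. Tmsb4x, thymosin β4, which sequesters actin monomers (chromosome X, 167207093 to 167209315, minus strand), was at 13690.2 TPM in replicate 1 and 7651 TPM in replicate 2 (10670.5 ± 4270.5, SD, n = 2). Its relative Tmsb10, thymosin β10 (chromosome 6, 72957347 to 72958748, minus strand), went the other way, with 2070.1 and 3229 TPM (2650 ± 819.6). On TMM-scaled counts the log2 ratio of replicate 2 to replicate 1 was -0.80 for Tmsb4x, with a 95% counting interval of -0.81 to -0.79, and 0.69 for Tmsb10, with an interval of 0.66 to 0.72. Counting intervals cover sampling of reads only, not the spread between cultures. Tmsb4x over Tmsb10 was accordingly 6.61 in replicate 1 and 2.37 in replicate 2, and 6.32 and 2.43 in the second quantification. The 2 thymosins together were 1.84 times the 2 actins in replicate 1 and 1.16 times in replicate 2.

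The coding sequences of the 2 thymosins are shown because these paralogs differed between the libraries in opposite directions, and the letters show how far they differ in sequence. They were read from the GENCODE M21 transcripts (mm10), each has 132 bases without the stop codon, and capitals mark the 40 positions at which they differ.
Tmsb4x: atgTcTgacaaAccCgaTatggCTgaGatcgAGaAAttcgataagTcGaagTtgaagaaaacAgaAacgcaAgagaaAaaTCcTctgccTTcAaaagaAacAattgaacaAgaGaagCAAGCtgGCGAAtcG
Tmsb10: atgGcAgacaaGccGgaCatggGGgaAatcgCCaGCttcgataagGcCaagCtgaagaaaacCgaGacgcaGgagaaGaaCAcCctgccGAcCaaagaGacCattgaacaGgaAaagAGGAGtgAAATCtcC
No identical run is longer than 10 bases, and none of the 31-base words of the leading Tmsb4x transcript occurs in a transcript of another gene. For Tmsb10 the share was 73.7%, over 9 genes, 8 of them processed pseudogenes. The only one of these at 1 TPM or more on average was Gm9844, at 9.62 and 9.38 TPM.

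Profilin and cofilin came next in this role. Pfn1, which loads monomers with ATP and feeds them to growing ends, was at 2084 and 2661 TPM, and its relative Pfn2 was at 0.67 and 1.78 TPM. Cfl1, which severs aged filaments, was at 1649 and 1411 TPM, and made up 92.5% and 91.1% of the sum with Cfl2 and Dstn. For Cfl1 the direction depended on the unit, since its log2 ratio was 0.00 in TMM-scaled counts and -0.22 in TPM. Cap1, which works with cofilin on monomer recycling, was at 436 and 533 TPM, and its paralog Cap2 was under 0.02 TPM. Cotl1, a coactosin that binds filaments, was higher in replicate 1, at 701 and 442 TPM. Twf1, the monomer-binding twinfilin, was nearly equal at 73.4 and 72.6 TPM, while Twf2 was at 99.3 and 58.4 TPM, so the larger of the pair was Twf2 in replicate 1 and Twf1 in replicate 2.

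All 8 Arp2/3 subunit genes of the list were expressed. On TMM-scaled counts 3 of the 8 were higher in replicate 2, and 2 with library totals in place of TMM, where Arpc5 changed sign. Over the 12558 genes with a mean of 10 reads or more, 48.6% were higher in replicate 2 with TMM and 42.8% with library totals. The complex has 7 positions, and paralogs can fill 3 of them. Arpc3 led in replicate 1, at 904 and 783 TPM, and Arpc2 in replicate 2, at 640.3 and 889.7 TPM. Actr3, the Arp3 subunit, was at 704 and 799 TPM and made up over 99% of its sum with Actr3b. Actr2, the Arp2 subunit that pairs with it, was the lowest position, at 282 and 223.5 TPM. Arpc5 was at 445 and 447 TPM, with its paralog Arpc5l at 41.2 and 33.8 TPM. From the lowest to the highest position the summed TPM spanned 3.21-fold in replicate 1 and 3.98-fold in replicate 2.

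Arpc4 set the libraries apart. It lies on chromosome 6 (113378115 to 113390448) and encodes a subunit of the complex's core, and it had 611 TPM in replicate 1 and 282 TPM in replicate 2 (447 ± 233, SD, n = 2). Its log2 ratio was -1.07, with a counting interval of -1.11 to -1.02. With a trend on transcript length and GC removed, an alternative added after seeing the data, the ratio was -0.81, under 2-fold. The second quantification gave 602 and 281 TPM, and no 31-base word of its leading transcript occurs in another gene. Arpc1b made up 88.8% and 92.0% of the Arpc1 pair, with 376 and 333 TPM against 47.5 and 29.1 TPM for Arpc1a. The second quantification put Arpc1b at 92.5% and 93.6%.

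Of the Arp2/3 subunits Actr3 shares the most sequence with other genes. Of the 31-base words of its leading transcript 63.6% occur in 2 processed pseudogenes. One of these, Gm15899, holds 8.21% of the words. It was given 139.6 and 99.0 TPM in the main quantification and is listed at 0 in both libraries in the second. The other, Gm8822, holds 62.1% of the words and had 1.94 and 2.16 TPM. Both were chosen after their values were seen. In the second quantification Actr3 with Actr3b was at 618 and 947 TPM.

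**Figure D2:**
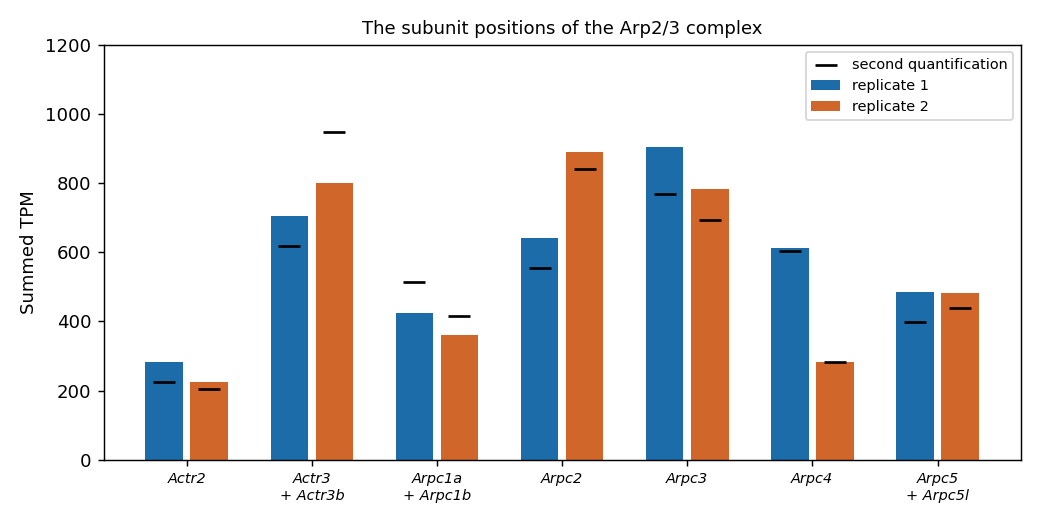
Summed TPM of the genes that fill each of the 7 Arp2/3 positions in replicate 1 (blue) and replicate 2 (orange); black marks give the second quantification. Arpc4 is at 611 and 282 TPM, and the Arpc2 bars go the other way, at 640.3 and 889.7 TPM.

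Of the 4 genes that activate the complex or extend filaments, Vasp was the highest and Wipf1 the lowest in both libraries. Was, the Wiskott-Aldrich syndrome protein of blood cells, was at 114 and 125 TPM, and was 16.5 and 10.8 times Wasl, its widely expressed relative. Wasf2, a subunit of the WAVE complex, was at 87.6 and 148 TPM, and Wasf1 and Wasf3 were under 0.02 TPM. Wipf1, which binds and stabilizes WASP, was at 74.1 and 85.7 TPM, with Wipf2 at 11.0 and 13.2 TPM. Vasp, which extends filament tips, was at 347 and 251 TPM. Its relative Evl, at 474 and 364 TPM, was higher than Vasp in both libraries, and Enah was at 0.01 and 0.15 TPM.

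The difference in Wasf2 depends on the unit. It was 1.68-fold in TPM and 1.24-fold in TMM-scaled counts, the widest gap between the units in any member. In replicate 1 the transcript Wasf2-201, of 5642 bases, held 91.6% of the gene's TPM. In replicate 2 it held 50.5%, and Wasf2-202, of 2236 bases, went from 0.70% to 45.2%. The second quantification gave Wasf2-202 11.2% and 56.0%.

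The 10 genes that cap, sever, bundle and crosslink filaments spread over a wide range. Lcp1, L-plastin, the bundling protein of leukocytes, was at 745 and 1339.6 TPM (1042 ± 421, SD, n = 2), and its paralogs Pls1 and Pls3 were under 3 TPM. Capg, a capping protein of the gelsolin family abundant in macrophages, was higher in replicate 1, at 791 and 517 TPM. Gsn, gelsolin itself, was at 121 and 105 TPM, near Flii at 118 and 131 TPM. Flna, the crosslinker filamin A, was at 233 and 285 TPM, and Actn4 was 6.06 and 5.89 times the other α-actinin, Actn1, at 101 and 119.9 TPM against 16.6 and 20.4 TPM. Fscn1, fascin, a bundling protein high in mature dendritic cells, was at 15.4 and 30.8 TPM. It was 1 of the 6 markers of mature dendritic cells, among which Ccl22 was at 7.78 and 34.0 TPM and Ccr7 at 4.55 and 3.60 TPM. The other 3, Ccl17, Flt3 and Zbtb46, were under 1 TPM in both libraries. The part of such cells in the Fscn1 difference was not tested.

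The coronins differed among themselves. Coro1a, the coronin of leukocytes (chromosome 7, 126699773 to 126707787), had 348 TPM in replicate 1 and 137 TPM in replicate 2 (243 ± 149, SD, n = 2). Its log2 ratio of -1.42, with a counting interval of -1.47 to -1.36, was the lowest of the 45. Coro1b was at 373 and 337 TPM and Coro1c at 130.3 and 154 TPM, so Coro1a was 40.9% of the trio in replicate 1 and 21.8% in replicate 2. No 31-base word of the leading Coro1a transcript occurs in another gene, and the second quantification gave a log2 ratio of -1.40. Neutrophil markers were also higher in replicate 1, S100a8 at 25.8 and 3.72 TPM and S100a9 at 26.4 and 1.18 TPM, and the part of such cells in the Coro1a values was not tested. Markers of T, B and NK cells summed to 0.58 and 0.06 TPM.

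Of the 7 genes that tie actin to the membrane and to adhesions, Vcl, Marcksl1, Ezr and Msn were higher in replicate 2 under both TMM and library totals. Marcks and Tln1 had log2 ratios of 0.02 each, with counting intervals that include 0, and both turned negative with library totals. With TMM the count higher in replicate 2 was therefore 6 of 7, and with library totals 4 of 7, beside 48.6% and 42.8% of all genes tested. The median log2 ratio of the 7 was 0.70, against -0.02 over all genes tested. Over 14 other genes listed for this role outside the members it was -0.08, and none of those was 2-fold apart. Marcksl1, which binds the membrane and actin (chromosome 4, 129513581 to 129515985), was at 876 and 1761 TPM (1318 ± 626, SD, n = 2), a log2 ratio of 1.03. Its paralog Marcks was nearly equal, at 228 and 229 TPM, so Marcksl1 over Marcks was 3.85 and 7.68. Msn, moesin, which links actin to the membrane, was at 546 and 879.9 TPM and made up 90.5% and 91.7% of the ezrin, radixin and moesin sum. Ezr, ezrin, was at 25.6 and 48.0 TPM, and Rdx, radixin, was at 32.0 and 32.1 TPM. Among the adhesion proteins, Tln1, talin, which switches on integrins, was at 138 and 168 TPM, and Tln2 was under 0.3 TPM. Zyx, zyxin, was at 103 and 96.0 TPM, but at 88.0 and 113 TPM in the second quantification. Its log2 ratio of counts was -0.26, and -0.25 in the second quantification.

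Vcl, vinculin, which reinforces the bond between talin and actin, was the lowest of the 45. It lies on chromosome 14 (20929398 to 21033676) and had 3.32 TPM in replicate 1 and 7.87 TPM in replicate 2 (5.60 ± 3.22, SD, n = 2), from 519 and 834 reads. Its log2 ratio of 1.26, with a counting interval of 1.10 to 1.42, was the highest of the members and 1.08 in the second quantification. Exons of Ap3m1 on the opposite strand cover 2090 bases (39.7%) of the leading Vcl transcript. Ap3m1, an adaptor subunit for protein sorting, was at 37.1 and 44.8 TPM. Whether counting used strand is not given in the sources used here, so reads of Vcl and Ap3m1 over that stretch may not be told apart.

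Nonmuscle myosin II was represented by Myh9 and its light chains. Myh9, the heavy chain IIA, was at 106 and 151 TPM and made up 98.6% and 99.3% of the sum with Myh10 and Myh14. Myl6, the essential light chain, was at 1159 and 949 TPM, which was 10.9 and 6.29 times Myh9. The regulatory light chains Myl12a and Myl12b are neighbours on chromosome 17 whose coding sequences share 498 of 516 bases (96.5%). Myl12a was at 244 and 183 TPM and Myl12b, summed over its 2 identifiers, at 610.2 and 842 TPM. The smooth muscle light chain Myl9 was at 0 in both.

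The direction of the older Myl12b identifier depended on the unit. In TMM-scaled counts the older (70973133 to 70990890) had a log2 ratio of -0.29 and the newer (70974119 to 71002208), which runs into Myl12a, had 0.83. In TPM both were higher in replicate 2, the older at 325.7 and 381 TPM and the newer at 285 and 461 TPM. Exons of Myl12a cover 72.6% of the leading Myl12b transcript, and 94.9% of its 31-base words occur in other genes. Over Myl12a and both identifiers together the level was 854 and 1026 TPM, with a log2 ratio of 0.08, closer to 0 than either identifier alone.

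Cdc42, a GTPase that drives filopodia and switches on WASP, was at 706 and 875 TPM.

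**Figure D3:**
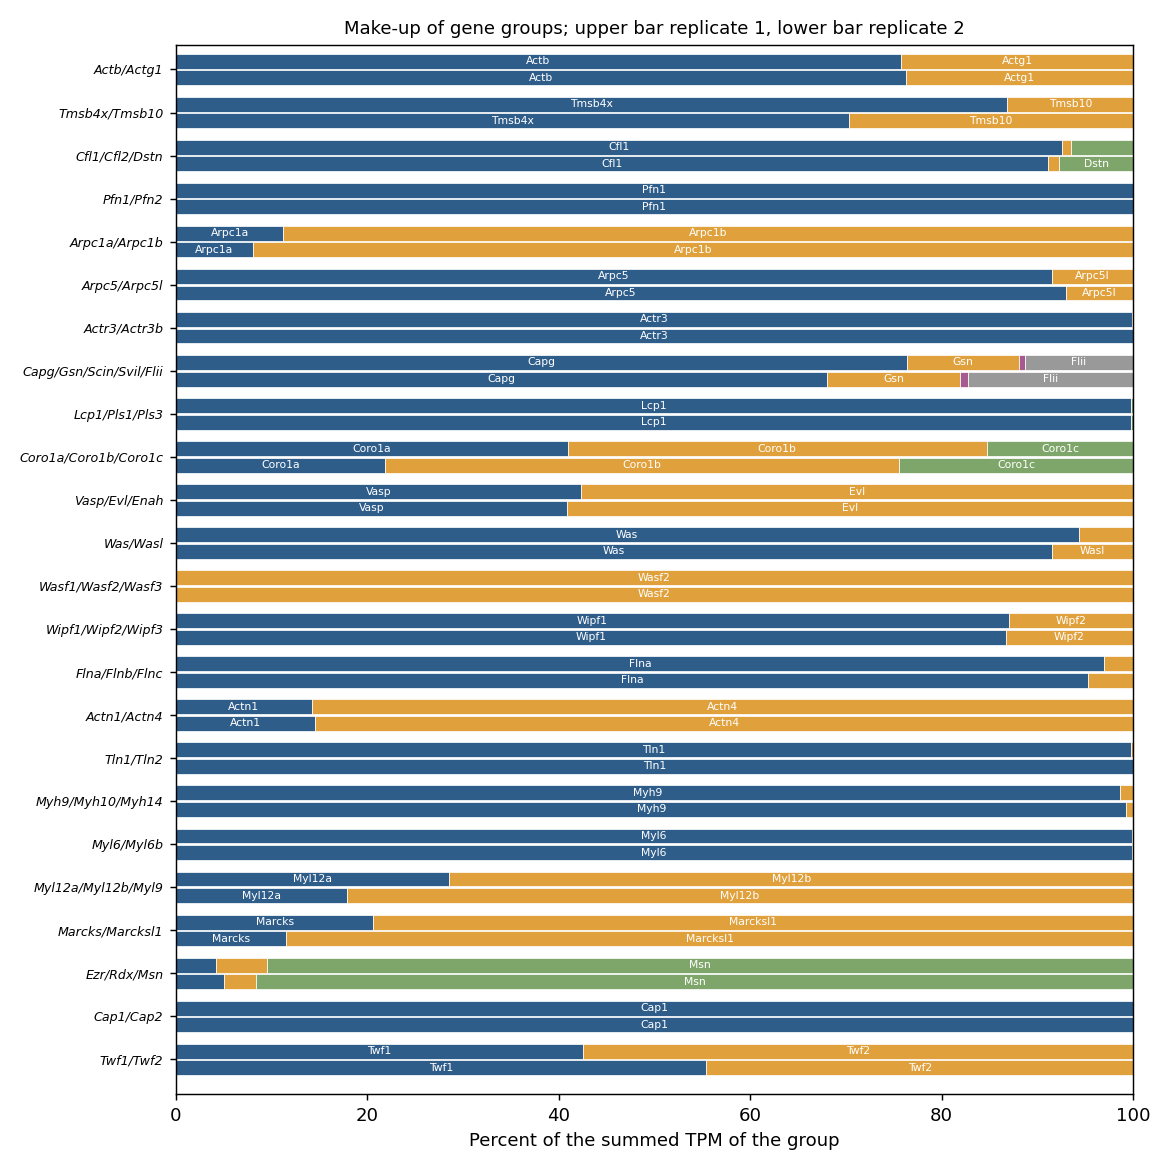
Percent of the summed TPM of 24 gene groups held by each gene, with replicate 1 as the upper bar and replicate 2 as the lower bar. Single genes fill the profilin, plastin, talin and Cap bars in both libraries, whereas the thymosin, coronin and twinfilin bars shift between the libraries.

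Between the libraries 13 members were 1.5-fold or more apart. Ratios used TMM-scaled counts for 12558 genes whose mean was 10 reads or more, which all 45 members passed. The median absolute log2 ratio was 0.29 over members (1.22-fold) and 0.36 over all genes tested (1.29-fold), or 0.32 over the 6634 genes at a mean of 10 TPM or more. A difference of 2-fold or more was seen in 4 members (8.89%), against 11.3% of all genes. Of these, Vcl and Marcksl1 were higher in replicate 2, where the background is 5.30%, and Coro1a and Arpc4 in replicate 1, where it is 6.00%. At 1.5-fold there were 13 members (28.9%), against 30.4% of all genes. Among genes at a mean of 10 TPM or more, which leaves 44 members without Vcl, 3 members (6.82%) were 2-fold apart against 6.59% of the 6634, and 12 (27.3%) were 1.5-fold apart against 24.9%. The members' shares were thus near those of genes at this level. With so few members, they were also not far from those of all genes. To the 4 genes above, the 1.5-fold level adds Ezr, Lcp1, Fscn1, Msn and Tmsb10 in replicate 2. It adds Tmsb4x, Arpc1a, Cotl1 and Capg in replicate 1. In all, replicate 2 had the higher value in 30 members and replicate 1 in 15 with TMM. With library totals the split was 22 and 23, since Actb, Arpc5, Cfl1, Coro1b, Flna, Marcks, Tln1 and Twf1 changed sign. The counting interval with TMM left out equality for 39 of the 45. That interval covers sampling of reads only and is narrow for genes with many reads. The same share was not taken over all genes, so the count describes no trait of the members. With 1 group of 2 libraries no test of a condition was possible, and these ratios compare libraries.

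Transcript length moved with these ratios. Across the 45 members the log2 ratio and the log2 length of the leading transcript had a Pearson r of 0.33 and a Spearman coefficient of 0.36, and across 12550 genes they had 0.16 and 0.22. With GC content the values were -0.13 and -0.13 for members and -0.14 and -0.20 for all genes. Genes of 2 shared libraries are not independent replicates, so these values describe the pair of libraries, and their part in the ratios was not tested. With a trend on length and GC removed, an alternative added after seeing the data, 5 members were 2-fold apart. Tmsb10 (1.12) and Fscn1 (1.11) passed 2-fold and Arpc4 (-0.81) no longer did.

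**Figure D4:**
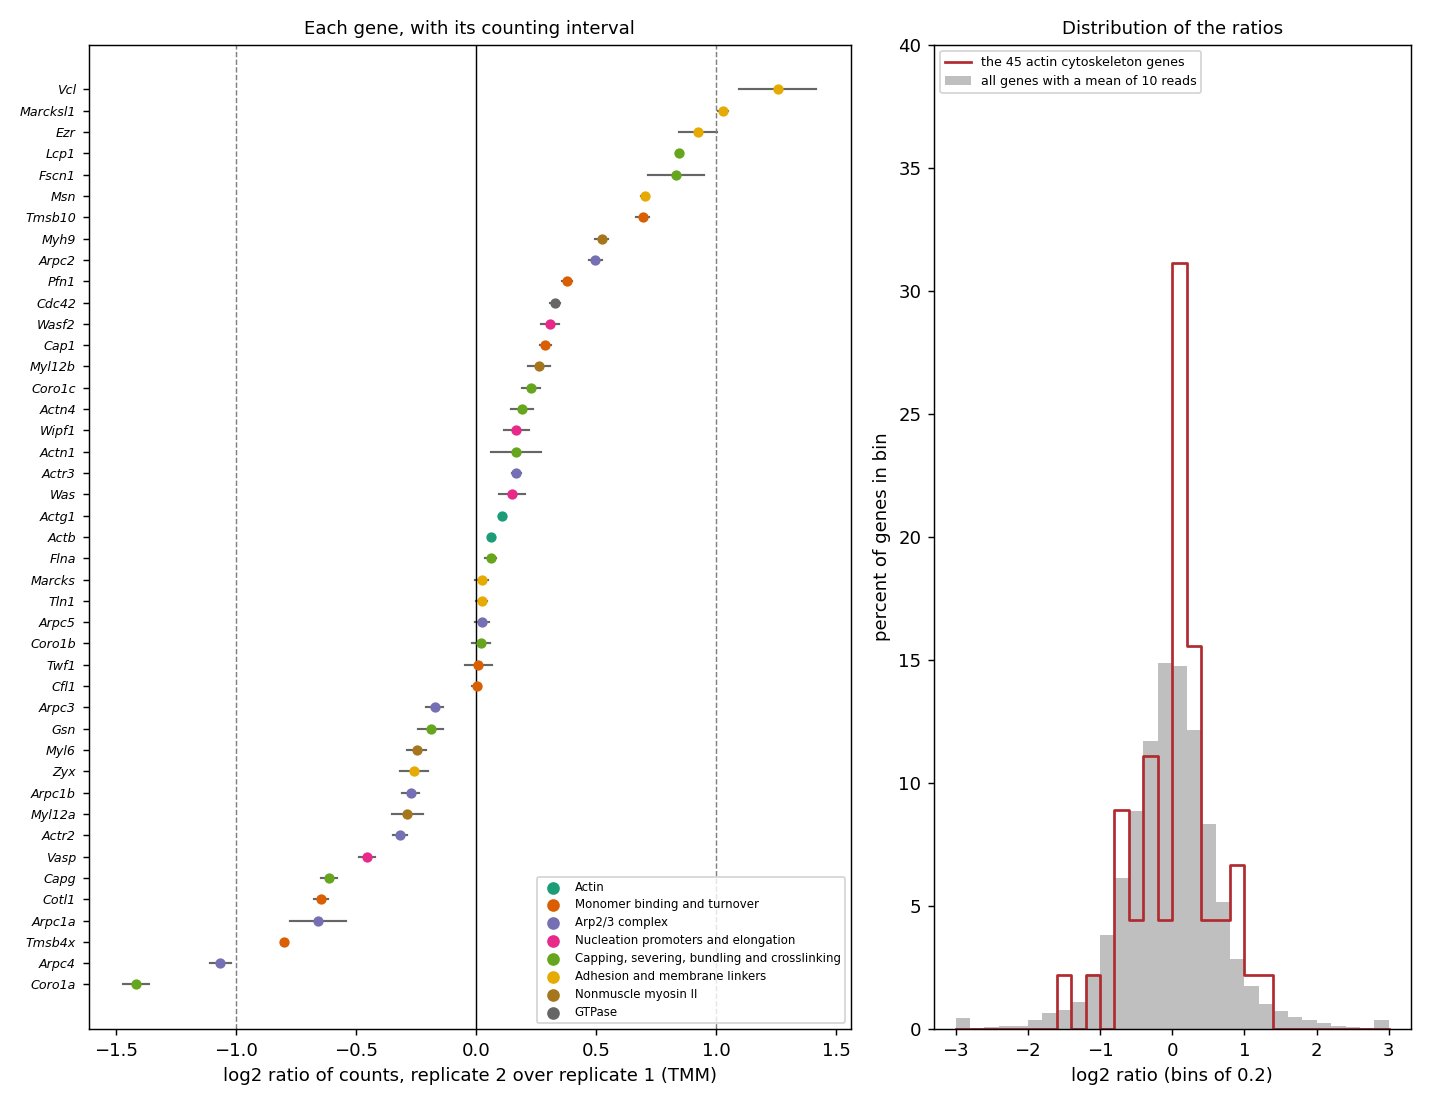
Left, log2 ratio of TMM-scaled counts of replicate 2 over replicate 1 for 43 of the 45 genes, coloured by role, with 95% counting intervals and dashed lines at 2-fold; right, the same ratios in bins of 0.2 as percent of the 45 genes (red line) and of 12558 genes (grey bars, with values beyond 3 placed in the end bins). Vcl and Marcksl1 lie beyond the right dashed line and Coro1a and Arpc4 beyond the left.

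Most members had the same leading transcript in both libraries, though many did not use it alone. The transcript that led in replicate 1 also led in replicate 2 for 43 of 45 members, and for 42 in the second quantification. It held 90% or more of the gene's TPM in both libraries for 23 members, and under 50% in either library for 6. All 45 transcripts that led in replicate 1 are annotated as protein coding. In replicate 2 the retained intron Myl12b-202 led its gene, at 305.8 TPM against 304.2 TPM for Myl12b-206. Marcks and Marcksl1 have a single annotated transcript, and Cdc42-202, of the 2 for Cdc42, held 99.2% and 99.4%. The share of the leading transcript was lower in replicate 2 for 25 members, for 10 of them by over 10 percentage points, and in none was it higher by over 10 points in the main quantification. In the second it was lower for 25 members, by over 10 points for 11, and higher by over 10 points for 3, Coro1b (44.4% to 71.2%), Actn1 (76.2% to 97.5%) and Actn4 (42.3% to 52.5%). Because the transcript was picked by its lead in replicate 1, some drop in replicate 2 follows from the choice. The counts in this paragraph were not taken over all genes, so whether they are particular to the members was not tested.

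Lcp1 was the plainest case of a switch. Lcp1-209 had 451 TPM in replicate 1 and 418 TPM in replicate 2, while Lcp1-206 had 273 and 908 TPM, so the gene's difference between the libraries lay in Lcp1-206. The second quantification gave Lcp1-206 24.6% and 51.7% of the gene. For Fscn1 the leading Fscn1-201 was even at 12.2 and 13.8 TPM, while Fscn1-207 was at 2.45 and 13.6 TPM. Fscn1-207 was at 0% and 15.1% of the gene in the second quantification, below the 15.9% and 44.2% of the first. For Actb a transcript of 930 bases, Actb-208, held 0.48% and 11.7%, beside the 1920 bases of Actb-201. In the main quantification, short transcripts were also listed only in replicate 2 for Tln1 (Tln1-206, 836 bases, 0 and 21.7 TPM) and Zyx (Zyx-208, 695 bases, 0 and 16.7 TPM).

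Flna was the member on which the quantifications differed most. Its full-length transcript Flna-202, of 8345 bases, held 52.4% and 41.5% of the gene's TPM, and the short noncoding Flna-215 held 30.2% and 12.3%. Flna-206, of 704 bases and annotated as a target of nonsense-mediated decay, went from 0.41% to 31.8%, and from 0% to 25.7% in the second quantification. In the second quantification Flna-202 held 77.1% and 56.2%, and Flna-215 held 4.08% and 0%. The gene's mean level there was 0.59 times that of the first, against a median of 0.90 over members. Transcripts annotated as noncoding or as retained introns held 10% or more in both libraries for 4 members, Flna, Actn4, Coro1b and Myl12b. That count is from the main quantification and was not taken over all genes. In Actn4 this was Actn4-206, a processed transcript with 38.7% and 42.4%.

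**Figure D5:**
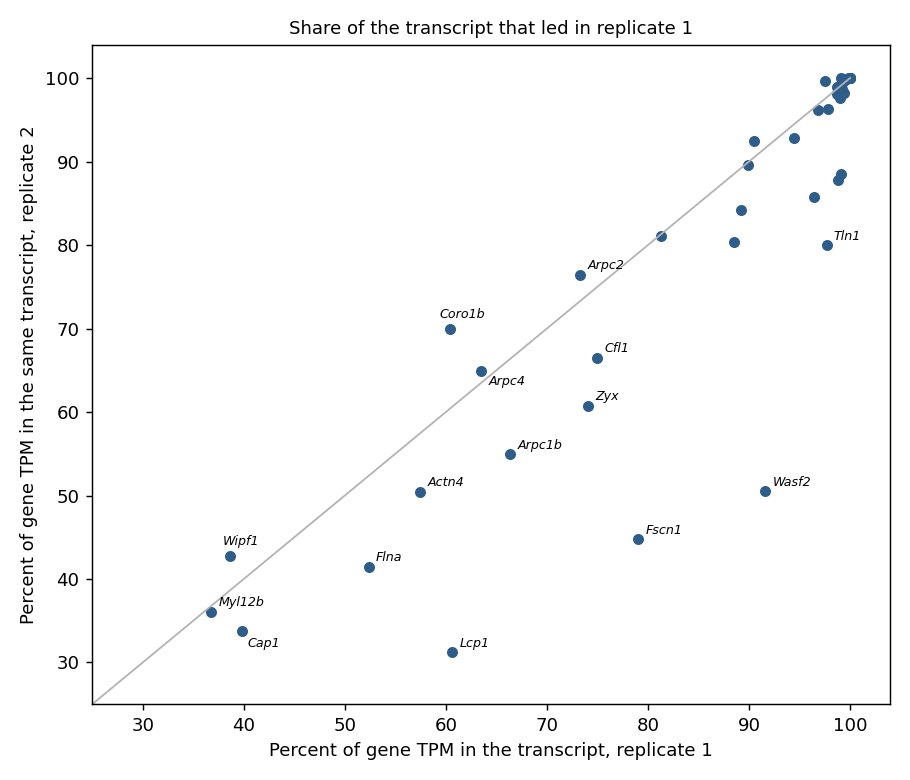
Percent of each gene's TPM held by the transcript that led in replicate 1, in replicate 1 (horizontal) and replicate 2 (vertical), for the 45 genes; the line is equality, and genes under 80% in either library are named. Wasf2, Fscn1 and Lcp1 lie far below the line.

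Beyond the 45 genes, 158 further symbols of the actin pathway were listed and 155 were measured. Of these 90 were at 10 TPM or more in both libraries, 32 at 100 TPM or more, and 33 under 1 TPM in both. Of the 129 with a ratio, 8 were at least 2-fold apart (6.20%). The share was 11.3% of all genes and 6.59% of genes at a mean of 10 TPM or more. In monomer turnover the highest were Wdr1, a partner of cofilin, at 267 and 329 TPM, and Gmfg, which prunes branches, at 183 and 165 TPM. Of the Arp2/3 regulators they were Hcls1, the blood-cell relative of cortactin, at 549 and 700.3 TPM, and Dbnl at 303 and 280.4 TPM. Of WAVE assembly they were Nckap1l, its blood-cell subunit, at 305 and 288 TPM, and Abi1 at 138 and 366 TPM. For Abi1 the log2 ratio was 1.41 in TPM and 0.71 in TMM-scaled counts, so the size of its difference depended on the unit.

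The remaining roles were led by genes as high as many members. The capping proteins Capzb and Capza2 were at 530.2 and 468 TPM and at 373 and 397 TPM. Capza2 was higher in replicate 2 in TPM but had a log2 ratio of -0.55 in counts. Of 12 formins and elongation factors 4 reached 10 TPM, with Evl followed by a formin, Diaph1, at 43.0 and 50.5 TPM. Of the genes listed under bundling and crosslinking, Aif1, a marker of macrophages, was at 932 and 581 TPM. Plek, pleckstrin, placed on that list without any measure of crosslinking, was at 429 and 816 TPM. Tpm3, a tropomyosin that coats filaments, was at 557 and 856 TPM, and the myosin Myo1f at 248 and 209 TPM. Vim, which builds intermediate filaments, was at 1468 and 1492 TPM, and Fermt3, the kindlin of blood cells, at 332 and 257 TPM.

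Many actin genes are targets of serum response factor, which binds a 10-base DNA element called the CArG box, and its cofactors of the MRTF family are held by actin monomers. Srf was at 19.6 and 34.1 TPM, a log2 ratio of 0.80 in TPM and 0.30 in counts, and Mrtfa was at 45.4 and 61.1 TPM. Promoter windows of 300 bases, from 250 before to 50 after a RefSeq start (GRCm38.p6), were matched for 41 members, with 51 windows. Actb, Coro1b, Cotl1 and Marcks had no window in the table. The CArG box, searched on both strands, lay in 4 of the 51 windows (7.84%), those of Actg1, Arpc4, Myl6 and Vcl, against 1.63% of 32851 windows of all genes. The 4 stretches are shown, 5′ to 3′ on the gene's strand, because they are the members' matches to this element, with the CArG box in capitals. It begins 90 bases before the start in Actg1, 250 in Arpc4, 50 in Myl6 and 227 in Vcl.
Actg1, chr11:120348561-120348600, minus strand: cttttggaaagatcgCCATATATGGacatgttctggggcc
Arpc4, chr6:113377863-113377887, plus strand: CCTAATTTGGtgcccaacctgaggt
Myl6, chr10:128493035-128493074, minus strand: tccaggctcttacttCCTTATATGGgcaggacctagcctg
Vcl, chr14:20929156-20929195, plus strand: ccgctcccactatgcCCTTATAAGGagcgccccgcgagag
These 4 genes did not move together between the libraries. Their log2 ratios were 0.11, -1.07, -0.25 and 1.26, and their levels ran from 3.32 TPM for Vcl to 2227 TPM for Actg1. The sequence TATAAA, on either strand, lay in 4 member windows (7.84%), among them those of Cdc42, Fscn1 and Myh9, against 13.6% of all windows. A κB site lay in 2 (3.92%), those of Flna and Myl12a, against 4.51%. A match describes letters in a window and is no evidence of binding in these cells.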

How the data were processed

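PolyA plus RNA-seq of 2 replicate libraries was analysed. Per the submitters' processing notes values refer to mm10 and GENCODE M21. The authors deposited expected counts, TPM (length-corrected abundance at a fixed total), FPKM and, for transcripts, the percent of a gene's abundance, and a second table of estimated counts and TPM made without alignments. Programs, versions and strand use: not given in the sources used here. Rows that name no annotated gene held 0.0788% and 0.0771% of counts and were left out. The gene table also holds deposited bounds of an interval around the TPM, whose level is not given.

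Symbols were mapped to gene identifiers through the second table, and the 2 identifiers of Myl12b were summed. Counts were rounded, scaled by TMM (edgeR 4.0.16, R 4.3.3) and given a prior of 0.5 reads. The 95% counting intervals treat reads as independent. The ratio step was also run on simulated counts with planted changes. Read sampling was their only other spread between libraries, so that run says nothing about spread between cultures. DESeq2 1.42.0 size factors, library totals, TPM, FPKM, other filters and levels, the second quantification and each library alone were alternatives. Coding sequences were aligned with Biopython 1.88.

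The text names 43 of the 45 members and, of the other pathway genes, the 2 of each role with the highest mean TPM and paralogs of members, and pseudogenes whose annotation names a member as parent at a mean of 10 TPM, of which there were none. Markers, and genes that share sequence or exons with members, are named beside the values they touch, and Lsp1 and Swap70 were chosen after their values were seen. The other 2 members and a pathway role are not reported here, but they stay in the counts over all members. Members and lists were chosen with earlier results of these data known. Motifs, shared words and overlaps were described without a test.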

Additional observations from a re-analysis of the deposited data

How the results depend on the processing

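The members at 10 TPM numbered 44 under FPKM, the second quantification, rescaled TPM, a level of 5 TPM and either library alone, and 42 at 20 TPM. Their share of annotated TPM was 3.66% in the second quantification, 3.41% as a share of expected counts and 4.67% with nuclear protein-coding genes as denominator, from 3.96% to 4.20% without either library. The number 2-fold apart was 3 with library totals, where Marcksl1 was at 0.95, 5 with the trend on length and GC removed, and 4 under the other scalings and filters. It was 13 at 1.5-fold. The median log2 ratio over members ranged from -0.01 with library totals to 0.15 in TPM. Members higher in replicate 2 numbered 30 with TMM and from 22 with library totals to 30 with DESeq2 size factors, a comparison added after seeing the data. Of 315 alternative values of single ratios, 21 had the other sign, in 9 members whose main log2 ratio was at most 0.25 in size. For Myl12b by its older identifier alone, an alternative added after seeing the data, the ratio was -0.29. Mean TPM moved by more than the SD for 8 members in the second quantification. No paired analysis was possible because the libraries form 1 group. Depth was not limiting for levels, since the lowest member had 519 reads. The deposited interval was 3.95% and 4.71% of its midpoint wide at the median and 27.6% at most. It was not taken for Myl12b, which has 2 identifiers.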

Other observations

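Among the other actin pathway genes, Lsp1, a leukocyte filament-binding protein, was at 23.0 TPM in replicate 1 and 97.5 TPM in replicate 2, a log2 ratio of 2.11. Swap70, which binds filaments and Rac, was at 48.2 and 105 TPM, a log2 ratio of 1.09. Both were chosen after their values were seen.

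The leading Actb transcript shares 22.7% of its 31-base words with an annotated transcript of Lrrc58, a gene on another chromosome, which was at 14.7 and 16.4 TPM. The antisense gene Gm17122 shares 9.17% of the words of Coro1c and was at 27.7 and 29.9 TPM in the main quantification and at 0 in both libraries in the second.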
